A study of Mus musculus with 2 samples.

Results

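The 4 Id genes and 6 genes of the BMP pathway that restrain, carry or answer its signal were followed in melanocyte stem cells (McSCs) that had been activated at the onset of hair growth and in mature melanocytes of the hair bulb. The members were Id1, Id2, Id3, Id4, Smad6, Smad7, Smad9, Atoh8, Bambi and Bmpr1a, 10 of the 32285 genes in the count matrices. They were chosen by their measured values in these same libraries, namely their levels in both libraries, their detection together with Oca2 and with Mki67 or Top2a, and their spread among bulb cells, so all of those values are given as descriptions and none was tested. Cells were kept when they had at least 1 UMI of Dct, fewer than 3 UMIs of Krt10 and Krt14 together, less than 5% of UMIs from mitochondrial genes, and more than 10000 UMIs in the early-anagen library or more than 5000 in the bulb library. A UMI is a tag that marks 1 captured transcript molecule. This left 2785 of 11010 barcodes (25.3%) in the early-anagen library and 3734 of 4327 (86.3%) in the bulb library.

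Bone morphogenetic proteins (BMPs) are secreted ligands that bring together type I and type II receptor kinases, such as Bmpr1a and Bmpr2. The receptors phosphorylate Smad1, Smad5 and Smad9, which enter the nucleus with Smad4, and the Id genes are among the best known direct targets of this route in many tissues. Id proteins have a helix-loop-helix domain but no DNA-binding region, and they pair with E proteins such as Tcf3, Tcf4 and Tcf12 and keep them off E-box sites. Smad6, Smad7 and Bambi are induced by the pathway and feed back on it. In the hair follicle, BMP signals accompany stem cell quiescence as well as differentiation of the hair shaft.

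Both libraries came from back skin, and all mice carried the alleles Dct-rtTA and tetO-H2B-GFP. The Dct promoter makes melanocytes respond to doxycycline, given in the diet for 4 days, with GFP bound to their chromatin, and live GFP+ cells were sorted, so cells with little Dct may be missed. The early-anagen library held cells of mice depilated at 8 weeks of age and taken 4 days after depilation, and the bulb library held cells of anagen VI hair bulbs cut from the skin of mice aged 5 weeks. Cells of 4 mice were combined in each library, so the mice could not be told apart and each condition was 1 sample. The skin was dissociated with trypsin for the first library and with EDTA, collagenase and dispase for the other, and the kit had version 3 chemistry in the early-anagen library but version 2 chemistry in the bulb library. Condition, age, dissociation, chemistry and depth therefore changed together and cannot be told apart. All intervals below are 95% intervals and cover counting error only.

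Chosen early-anagen cells had a median of 24528 UMIs (4684 genes), while the median bulb cell held 14286.5 UMIs (3407 genes). Each of 8 melanocyte markers was found in at least 85.3% of cells in early anagen, and in at least 75.5% in the bulb. Dct was among them and was in every cell by the choice of cells. Markers of other cell types were low in sum, with 42.2 UMIs per 1000000 UMIs (CPM) for 8 keratinocyte genes in early anagen against 22.1 in the bulb, 17.6 against 7.5 for 5 immune genes, and at most 1.32 for fibroblast or endothelial genes. Krt10 and Krt14, among the keratinocyte genes, were kept low by the choice of cells, and Krt10 alone was at 13.1 and 16.2 CPM. Of the 8 keratinocyte markers, 0 were at 0 UMIs in early anagen and 3 were in the bulb, and 34.8% and 21.7% of the chosen cells had a Krt10 or Krt14 UMI. 1 barcode occurred in both libraries, and 0 barcodes among the chosen cells.

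The upstream sequence of 7 members was found in the RefSeq table of promoters (GRCm38.p6), as 250 bases before the RefSeq start. For Id3, Id4 and Bmpr1a this start was not that of any GENCODE M21 transcript. Relative to the gene coordinates printed below, the RefSeq start of Id2 lay 1048 bases, that of Id3 325 bases and that of Bmpr1a 795 bases inside the gene, that of Id4 112 bases before it, and those of Smad6, Smad9 and Atoh8 at its first base. The stretches of Smad6, Atoh8, Id4 and Id2, the 4 matched members with the largest ratios between the libraries, are shown as far as no exon of GENCODE M21 overlaps them. They are written 5′ to 3′ on the strand of the gene, and capitals mark GGCGCC and GGAGCC, GC-rich letters known from BMP-responsive enhancers, searched on both strands.
Id2, chr12:25096254-25096342, minus strand: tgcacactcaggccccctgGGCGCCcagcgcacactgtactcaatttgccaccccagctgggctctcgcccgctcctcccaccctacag
Id4, chr13:48260866-48261115, plus strand: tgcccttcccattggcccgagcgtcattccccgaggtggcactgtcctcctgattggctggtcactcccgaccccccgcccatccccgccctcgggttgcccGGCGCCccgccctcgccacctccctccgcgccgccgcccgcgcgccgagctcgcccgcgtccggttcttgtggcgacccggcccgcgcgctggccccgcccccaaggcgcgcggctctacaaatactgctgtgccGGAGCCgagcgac
Smad6, chr9:64022060-64022309, minus strand: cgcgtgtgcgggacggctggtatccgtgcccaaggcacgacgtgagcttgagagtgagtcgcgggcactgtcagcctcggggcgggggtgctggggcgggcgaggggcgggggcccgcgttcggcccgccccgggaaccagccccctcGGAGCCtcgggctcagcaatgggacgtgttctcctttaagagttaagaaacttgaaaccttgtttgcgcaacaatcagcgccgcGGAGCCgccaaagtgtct
Atoh8, chr6:72235578-72235827, minus strand: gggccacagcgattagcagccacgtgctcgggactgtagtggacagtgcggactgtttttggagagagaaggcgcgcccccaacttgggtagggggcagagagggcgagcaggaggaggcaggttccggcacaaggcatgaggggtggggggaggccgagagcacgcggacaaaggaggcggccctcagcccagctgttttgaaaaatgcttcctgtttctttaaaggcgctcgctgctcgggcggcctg
In the whole windows of 250 bases, GGCGCC lay in those of Id2, Id4, Smad9 and Bmpr1a, and in 9.59% of 32851 windows in the table. GGAGCC lay in the windows of Id2, Id3, Id4, Smad6 and Smad9, and in 26.0% of all windows. The window of Atoh8 held neither. The matched members had between 62.8% and 78.8% G and C against a median of 52.4% over all windows, and of the 9178 windows with at least 60% G and C, 26.1% held GGCGCC and 46.5% held GGAGCC. The 2 kinds of letters did not overlap in these windows. Smad6 held GGAGCC at 102 and at 18 bases before the start, and Id4 held GGCGCC at 148 and GGAGCC at 13 bases. GTCT, the Smad box, was found in 4 of the 7 member windows and in 82.9% of all windows. Of the letters searched for E-box factors, CACGTG was found in the window of Atoh8 and in 6.02% of all windows. CATGTG was found in 0 of the 7 member windows and in 12.3% of all windows. In the windows with at least 60% G and C these shares were 9.32% for CACGTG and 5.00% for CATGTG.

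The first question was how the members stood in mature bulb melanocytes against activated McSCs. Each of the 4 Id genes was several times higher in the bulb library, and Smad6 had the largest ratio of the members. Smad7 and Bambi, which also feed back on the pathway, differed by less than 2-fold, and the receptor Bmpr1a was lower in the bulb. Levels in CPM are UMIs summed over the chosen cells and divided by all UMIs of those cells. UMIs were counted from 3′ ends, so levels were not divided by gene length. Of the 8 members with a mean of at least 10 CPM, 5 were at least 2-fold higher in the bulb, where 16.4% of the 7298 genes over that limit were as high, and 1 was at least 2-fold lower, where 25.8% were as low. Smad6, among the 5, reached that limit only through its bulb level, so its place in the count carries no weight. Counting Smad9 and Atoh8, which were under the limit, 6 of the 10 were higher and 1 was lower. The median log2 ratio was 2.38 over the 10 members (interval 2.34 to 2.43) and −0.11 over all genes that passed. These counts describe the choice of the members and carry no test. With TMM factors of edgeR in place of total UMIs, the median over all genes was 0.20 instead of −0.11, with 24.1% of genes at least 2-fold higher and 19.4% at least 2-fold lower. Each member's ratio kept its sign, but Bmpr1a then had a log2 ratio of −0.82, short of 2-fold. Smad9 then had 1.115, over 2-fold, and Bambi had 0.9992, barely short of 2-fold, so the counts depend on the scaling.

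**Figure D1:**
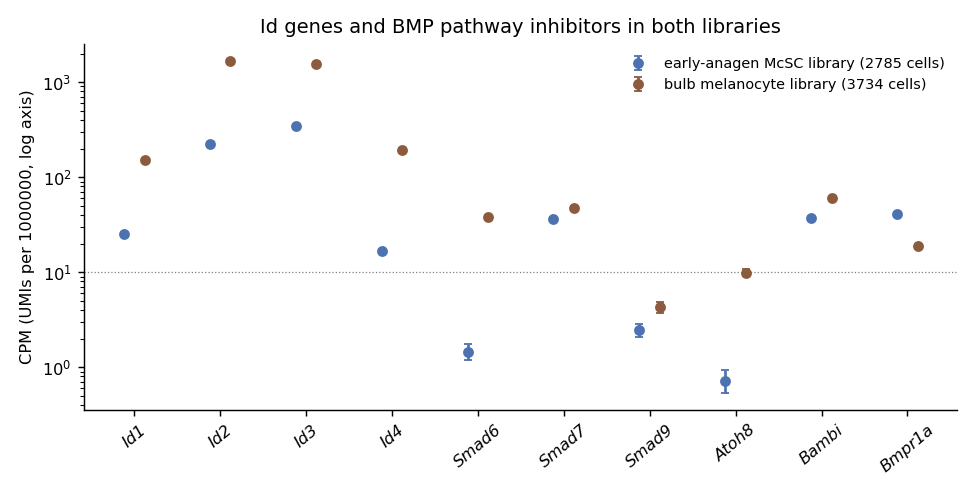
Level of each member in CPM (log axis) in the chosen cells of the early-anagen library (blue) and of the bulb library (brown). Bars are 95% counting intervals, mostly smaller than the points, and the dotted line is the limit of 10 CPM. The 4 Id genes and Smad6 stand far apart, with Smad6 at 1.44 against 38.5 CPM, while Smad7 stands at 36.6 against 47.6 CPM.

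Id2 (ENSMUSG00000020644, chr12:25093799-25097140, minus strand in GENCODE M21 on GRCm38) was at 222 CPM (218 to 225) in early anagen and at 1674 CPM (1663 to 1685) in the bulb, a ratio of 7.56-fold. Id3 (ENSMUSG00000007872, chr4:136143497-136145755, plus strand) was at 345 and 1570 CPM, 4.55-fold. These were by far the most abundant members in both libraries. Id1 (ENSMUSG00000042745, chr2:152736251-152737410, plus strand), the Id gene most often used as a readout of BMP signalling, was at 25.3 CPM (24.2 to 26.5) in early anagen and 151 CPM (148 to 155) in the bulb, 5.99-fold. Id4 (ENSMUSG00000021379, chr13:48261228-48266026, plus strand) was at 16.7 and 193 CPM, 11.6-fold. Id4 thus had the largest ratio and the lowest early-anagen level of the 4. The 4 Id genes summed to 608 CPM in early anagen and 3589 CPM in the bulb. Id3 held 56.7% of that sum in early anagen and 43.8% in the bulb, and Id2 held 36.4% and 46.6%, so the order of the leading pair was turned around between the libraries.

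Smad6 (ENSMUSG00000036867, chr9:63953076-64022059, minus strand), an inhibitory Smad that binds the type I receptor, was at 1.44 CPM in early anagen from 109 UMIs and at 38.5 CPM in the bulb from 2150 UMIs, 26.7-fold. Its log2 ratio was 4.74 (4.46 to 5.03), and 0.343% of the genes that passed had a larger one. The early-anagen level was not distinguishable from the background given further on, so this ratio describes the UMIs counted and is no measure of how far the gene itself differed. Smad7 (ENSMUSG00000025880, chr18:75367529-75395935, plus strand), the inhibitory Smad that also restrains TGF-β signalling, was at 36.6 and 47.6 CPM, with a log2 ratio of 0.38 (0.30 to 0.46). The inhibitory Smads were thus far apart in early anagen and much nearer in the bulb. Bambi (ENSMUSG00000024232, chr18:3507923-3516404, plus strand), a pseudoreceptor without a kinase domain, was at 37.5 and 60.3 CPM, with a log2 ratio of 0.69 (0.61 to 0.76).

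Smad9 (ENSMUSG00000027796, chr3:54755582-54801257, plus strand), the third of the BMP receptor Smads, was scarce in both libraries, at 2.44 CPM from 185 UMIs and 4.26 CPM from 238 UMIs. Atoh8 (ENSMUSG00000037621, chr6:72206177-72235577, minus strand), a helix-loop-helix factor known as a BMP target in endothelium, was at 0.713 CPM from 54 UMIs in early anagen and at 9.90 CPM from 553 UMIs in the bulb, 13.9-fold. Its early-anagen level was within the upper limit of 1.51 CPM for keratinocyte barcodes, in which it had 0 UMIs, so the same holds for its ratio. Bmpr1a (ENSMUSG00000021796, chr14:34410734-34503341, minus strand), a type I receptor of BMPs, was the 1 member that was lower in the bulb. It was at 41.0 CPM (39.6 to 42.5) in early anagen and 18.7 CPM (17.6 to 19.9) in the bulb, a log2 ratio of −1.13. Its early-anagen level was not distinguishable from that of keratinocyte barcodes in the same library, given further on.

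In early anagen the order from the highest level was Id3, Id2, Bmpr1a, Bambi, Smad7, Id1, Id4, Smad9, Smad6 and Atoh8. Bambi (36.1 to 38.9 CPM) and Smad7 (35.3 to 38.0 CPM) were the 1 pair of neighbours whose intervals overlapped. In the bulb the order was Id2, Id3, Id4, Id1, Bambi, Smad7, Smad6, Bmpr1a, Atoh8 and Smad9, and the intervals of 0 pairs of neighbours overlapped.

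Shares of cells showed the same contrast. With each cell thinned at random to 5000 UMIs, Id2 was found in 42.5% of early-anagen and in 99.6% of bulb cells, and Id3 in 44.4% and 98.6%. Id1 was found in 6.46% and 41.3%, Id4 in 7.90% and 54.6%, and Smad6 in 0.682% and 18.2%. Smad7 (15% and 20.7%) and Bambi (15.4% and 22.7%) were found in shares that were near each other in both libraries. Bmpr1a was found in 18.2% and 9.24%, Atoh8 in 0.287% and 5.09%, and Smad9 in 1.26% and 1.96%. Without thinning, where the early-anagen cells were deeper, the shares were 73.5% and 99.9% for Id2, 69.2% and 99.8% for Id3, 17.7% and 67.9% for Id1, 27.5% and 82.2% for Id4, 3.05% and 41.2% for Smad6, 46.8% and 46.0% for Smad7, and 48.2% and 46.3% for Bambi. For Smad7 and Bambi the share at full depth was thus higher in early anagen while the level was lower there, and no order is read from it.

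Free RNA also gives UMIs to cells that do not make a transcript. In 64 early-anagen barcodes that were mostly keratinocyte by Krt10, Krt14 and Dct (median 33548 UMIs, against 24528 in the melanocytes), Id2 was at 18 CPM with a UMI in 32.8% of barcodes, Smad7 at 17.2 CPM in 31.2% and Bambi at 6.15 CPM in 17.2%. Early-anagen melanocytes were above these levels and shares for all 3 genes. Smad6 had 1 UMI in these barcodes, 0.41 CPM with an interval up to 2.28 CPM, so its 1.44 CPM in early-anagen melanocytes was not distinguishable from that background. Id4 was found in 26.6% of the barcodes, close to its 27.5% in early-anagen melanocytes, so its share there is read as no more than background, although its level was lower in the barcodes (10.2 CPM, 6.63 to 15.1). Id1, Id3 and Bmpr1a, which keratinocytes also express, were at 64.3, 94.2 and 49.2 CPM in those barcodes, and Id1 was thus lower in early-anagen melanocytes than in keratinocyte barcodes of the same library. The bulb library had 7 such barcodes (median 10824 UMIs, against 14286.5 in the melanocytes), in which Id2 was at 324 CPM, Id4 at 24.9 CPM from 2 UMIs, and Bambi at 1421 CPM from 114 UMIs.

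Counting the Id genes found in each cell put the libraries almost at opposite ends. At 5000 UMIs per cell, 0 of the 4 Id genes were found in 38.0% of early-anagen cells (36.2% to 39.8%), which was 1058 cells, and in 1 bulb cell. Exactly 2 were found in 24.7% of early-anagen and in 27.6% of bulb cells. 3 Id genes were found in 6.0% and 48.9%, and all 4 in 0.862% and 22.9%.

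**Figure D2:**
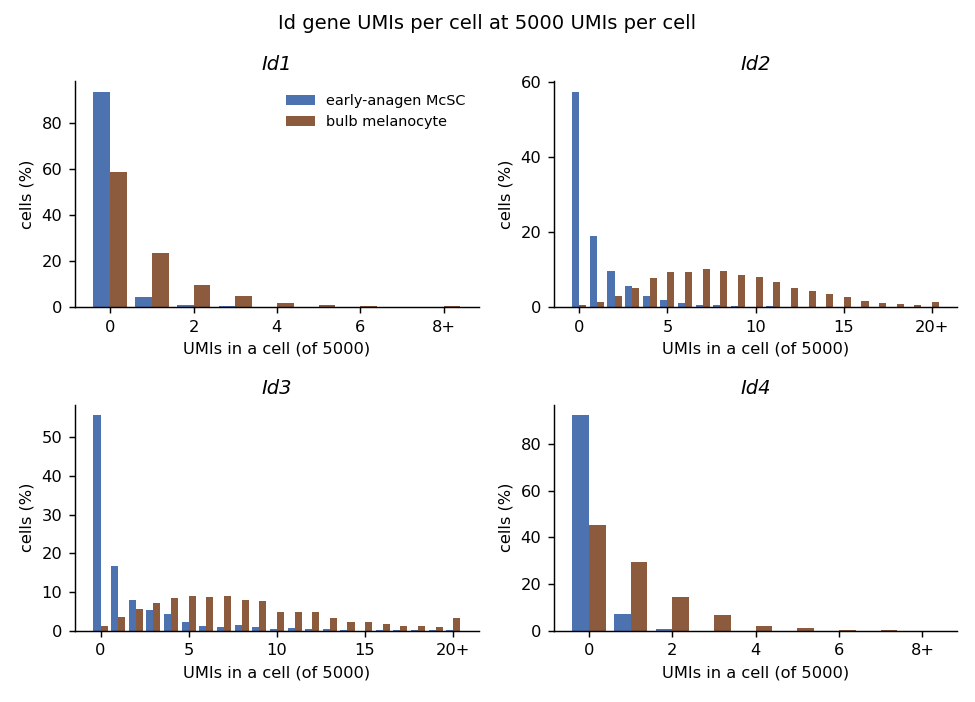
Share of cells (%) by the number of UMIs of Id1, Id2, Id3 and Id4 in a cell, with each cell thinned to 5000 UMIs, in early-anagen cells (blue) and bulb cells (brown); the last bar holds all higher counts. Most early-anagen cells have 0 UMIs of each gene, while the median bulb cell has 8 UMIs of Id2 and 7 of Id3.

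The way the Id genes were spread over cells also differed. At 10000 UMIs per cell the median early-anagen cell had 1 UMI of Id2 and 1 of Id3, while the highest had 35 and 75. The 10% of cells with the most UMIs held 49.1% of the Id2 UMIs and 55.8% of the Id3 UMIs in early anagen. Among bulb cells at the same depth, the median was 16 UMIs of Id2 and 14 of Id3, the highest had 46 and 90, and the top 10% held 18.3% and 22.2%. Id2 and Id3 were thus more even over bulb cells than over early-anagen cells.

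The variance of UMIs over cells, divided by their mean, is 1 for counts that vary by sampling alone. Among bulb cells at 5000 UMIs it was 3.27 for Id3, 2.05 for Id2, 1.91 for Id1 and 1.44 for Id4, against a median of 1.03 over the 6560 genes with at least 0.05 UMIs per cell. Since the ratio grows with the level, it is set beside genes within 2-fold of the same mean. Of those, 1.56% had a higher ratio than Id1, 3.29% than Id4, 3.95% than Id3 and 13.4% than Id2. Smad6 (1.02) and Bmpr1a (1.0) were at the level of sampling in the bulb at this depth, with 50.2% and 67.2% of like genes higher. Smad6 did not stay there at 10000 UMIs (1.09, with 18.1% of like genes higher). Still at 5000 UMIs, Bambi (1.83) was exceeded by 1.0% of like genes. Smad7 was at 1.11 and Atoh8 at 1.09. Smad9 was under the limit of 0.05 UMIs. After removal of the sampling part, the standard deviation between bulb cells was 0.354 of the mean for Id2, 0.532 for Id3, 0.678 for Id4, 1.11 for Id1 and 1.64 for Bambi. In early-anagen cells at the same 5000 UMIs the variance over mean was 6.24 for Id3, 3.38 for Id2 and 3.52 for Id1, higher than in the bulb although their means were lower. For Id4 it was 1.2 against 1.44 in the bulb, but its mean was 0.0887 UMIs against 0.961 in the bulb. After removal of the sampling part, the standard deviation of Id4 was 1.48 of the mean in early anagen, above the 0.678 of the bulb.

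Among bulb cells the UMIs of Bambi went with transcripts of another cell type. The 3 genes whose UMIs were most like those of Bambi over bulb cells were S100a6 (Pearson r = 0.31), Fabp4 (0.30) and Tchh (0.29), and the most opposed was Dct (−0.21). Tchh, trichohyalin, is made in the inner root sheath and medulla of the follicle. In 69 bulb cells (1.85%) with a UMI of Tchh, a group chosen after its values were seen, Bambi was at 351 CPM against 56.2 CPM in the others. Id1 was at 284 against 146 CPM in the same cells and Id2 at 1293 against 1677 CPM. The 22 bulb cells with 4 or more Bambi UMIs held 12% of all Bambi UMIs, 54.5% of them had a Tchh UMI, and Dct was at 7573 CPM in them against 15992 CPM in cells without Bambi. Leaving out the Tchh cells, the log2 ratio of Bambi between the libraries was 0.56 in place of 0.69, and those of Id1 (2.56), Id2 (2.92), Id4 (3.54) and Smad6 (4.74) moved by less than 0.05. The spread of Bambi was not computed without these cells, so the part of another cell type in it was not tested.

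The second question was whether, among early-anagen McSCs, cells that had begun to express Oca2 differed in the members. Oca2 encodes a melanosomal transport protein that is needed for pigment, and cells with at least 1 Oca2 UMI after thinning to 10000 UMIs were taken as Oca2+. There were 292 Oca2+ and 2493 Oca2- cells. Of the 7 members over 10 CPM in these cells, 5 were at least 1.5-fold higher in Oca2+ cells, where 4.54% of 7438 genes were as high, and 0 were 1.5-fold lower, where 6.43% of genes were as low. Detection with Oca2 was part of the choice of the members, so nothing is read from these counts.

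Id1 stood at 65.4 CPM when Oca2 was found and at 17.4 CPM when it was not, a log2 ratio of 1.91 (1.66 to 2.16). Id2 was at 536 and 170 CPM (1.66, from 1.57 to 1.74) and was found in 86.6% and 53.5% of cells. Id3 was at 657 and 275 CPM, 2.38-fold. Id4 was nearer, at 27.4 and 16.4 CPM, 1.67-fold. All 4 Id genes were thus higher in the Oca2+ cells, with Id1 in the lead. Smad7 was at 64.4 and 32.4 CPM (log2 ratio 0.99, from 0.75 to 1.22). Smad6 had 16 UMIs in either class, which gave 5.48 and 0.642 CPM, and Smad9 had 18 and 40 UMIs, 6.16 and 1.60 CPM. Atoh8 had 2 and 10 UMIs, with an interval of −2.46 to 3.00 for its log2 ratio. Bambi was at 36.0 and 40.4 CPM (−0.17, from −0.47 to 0.12) and Bmpr1a at 29.1 and 43.2 CPM (−0.57, from −0.90 to −0.25). The Smads that pass the signal on were close, with log2 ratios of 0.31 for Smad1, 0.02 for Smad5 and −0.01 for Smad4. At full depth the Oca2+ cells had a median of 27409 UMIs and the Oca2- cells of 24119.

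**Figure D3:**
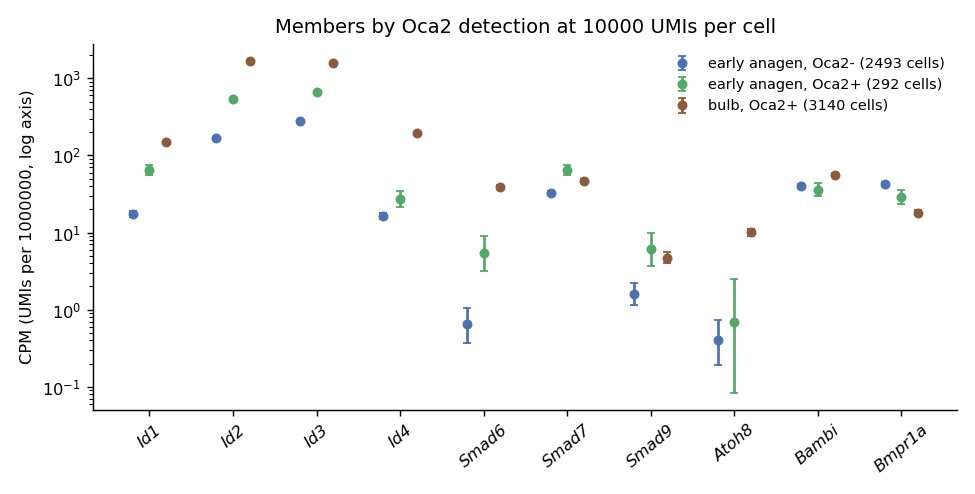
Level of each member in CPM (log axis, 95% counting intervals) in early-anagen cells without Oca2 (blue), early-anagen cells with Oca2 (green) and bulb cells with Oca2 (brown), all thinned to 10000 UMIs. For Id2 the levels are 170, 536 and 1682 CPM. With scaling by total UMIs, Smad7 is highest in the early-anagen Oca2+ cells, at 64.4 CPM.

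Oca2+ cells of the 2 libraries still differed in most members. At 10000 UMIs per cell, reached by 3288 of the 3734 bulb cells, 3140 bulb cells were Oca2+. Id2 was at 1682 CPM in them, 3.14-fold over the Oca2+ early-anagen cells, Id3 at 1569 CPM, 2.39-fold, and Id1 at 148 CPM, 2.26-fold. Id4 was at 195 CPM, 7.10-fold higher, and Smad6 at 38.6 CPM, 7.04-fold higher on 16 early-anagen UMIs. For Id2 and Id3 the Oca2+ early-anagen cells thus lay about midway on a log scale between the Oca2- cells and the bulb, and for Id4 they lay near the Oca2- cells. Smad7 had another order with scaling by total UMIs. Its 47.1 CPM in Oca2+ bulb cells was below the 64.4 CPM of Oca2+ early-anagen cells (log2 ratio −0.45, from −0.67 to −0.22). TMM scaling, which adds 0.31 to log2 ratios between the whole libraries, was not tried on these classes. That shift is larger in size than the upper end of the interval, so no firm order is read for Smad7. Within the bulb at 5000 UMIs per cell, 3226 Oca2+ and 508 Oca2- cells had log2 ratios between −0.04 and 0.17 for the 4 Id genes, while Bambi was lower in Oca2+ cells (56.2 against 96.1 CPM).

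The third question was whether the members went with division. Mki67 and Top2a are expressed in cycling cells, and 993 of the 2785 early-anagen cells had at least 1 UMI of either after thinning to 10000 UMIs. Of the 7 members over 10 CPM, 0 were 1.5-fold higher in cycling cells and 0 were 1.5-fold lower, where 7.3% of genes were as high and 3.5% as low. This split too was part of the choice of the members. The log2 ratio was 0.10 for Id1 (−0.14 to 0.34), −0.09 for Id2 (−0.17 to −0.01), 0.12 for Id3 (0.06 to 0.18) and −0.07 for Id4 (−0.35 to 0.20). Smad7 (−0.21), Bambi (−0.02) and Bmpr1a (−0.22) were also close. Smad9, from 10 and 48 UMIs, had a log2 ratio of −1.41 that turned its sign with another random draw of UMIs, so no direction is given for it. Cycling cells were deeper before thinning, with a median of 34875 UMIs against 21039.

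Taking both splits together, the levels of the Id genes went with Oca2 in cycling and in non-cycling cells. Id3 was at 760 CPM in the 65 cells with Oca2 and a cycling transcript and at 627 CPM in the 227 with Oca2 alone. It was at 303 CPM in the 928 cycling cells without Oca2 and at 259 CPM in the 1565 cells with neither. Id2 was at 462, 558, 182 and 163 CPM in the same order, and Id1 at 90.8, 58.1, 18.8 and 16.6 CPM. Bambi was at 66.2 CPM in the cells with both and at 27.3, 37.7 and 41.9 CPM in the other classes. The 65 cells gave 43 Bambi UMIs.

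The pigmentation genes as a group gave the same order as Oca2. Early-anagen cells were ranked by the summed UMIs of 14 pigmentation genes other than Oca2 and divided into 4 groups of equal size, with a median of 133 pigmentation UMIs in the lowest and 425 in the highest. From the lowest group to the highest, Id2 stood at 67.0, 107, 206 and 454 CPM and Id3 at 125, 240, 323 and 575 CPM. Id1 stood at 6.03, 14.4, 19.1 and 50.3 CPM. Each of these 3 Id genes was thus higher in every next group, by 6.78-fold in all for Id2, 4.60-fold for Id3 and 8.35-fold for Id1. Id4 stood at 12.3 CPM in the lowest and 27.7 CPM in the highest group, and Smad7 at 24.2 and 55.6 CPM. Smad6 had 1 UMI in the lowest group and 23 in the highest, and Smad9 had 2 and 33. Bambi (39.3 and 41.8 CPM) and Bmpr1a (40.7 and 38.9 CPM) did not differ beyond their intervals. Mitf, the master regulator of the melanocyte lineage, was at 308 and 670 CPM, and Vim, an intermediate filament gene, was at 6851 and 2901 CPM.

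In bulb cells the same ranking gave nearly flat levels. Id2 stood at 1584 CPM in the lowest and 1775 CPM in the highest group, Id3 at 1715 and 1528 CPM, Id1 at 147 and 138 CPM and Id4 at 196 and 202 CPM. Smad6 was 1.44-fold higher in the highest group, at 49.3 against 34.3 CPM, and Bambi was lower there, at 57.4 against 88.4 CPM. Bambi was found in 22.7% of cells in the highest and 27.7% in the lowest group, and the part of the Tchh cells was not tested. Oca2 and the pigmentation rank are not independent of each other. Within the highest early-anagen group alone, a comparison added after the values were seen, Oca2+ cells still had higher levels of Id1 (log2 ratio 0.95, from 0.64 to 1.26), Id2 (0.70), Id3 (0.62) and Smad7 (0.62), while Id4 was close (0.14, from −0.30 to 0.58) and Bambi was lower (−0.62, from −1.03 to −0.24).

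**Figure D4:**
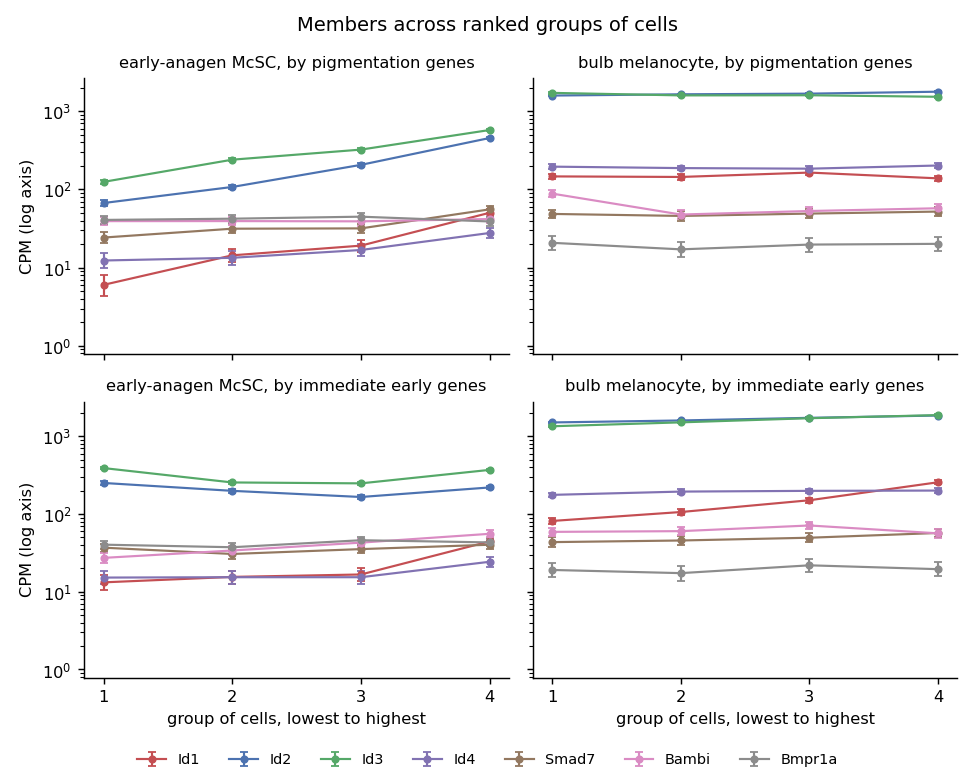
Levels of 7 members (CPM, log axis, 95% counting intervals) in 4 equal groups of cells ranked by summed pigmentation genes (top) and by summed immediate early genes (bottom), in early-anagen cells (left) and bulb cells (right). Id1, Id2 and Id3 stand higher with more pigmentation transcripts in early-anagen cells, Id2 from 67.0 to 454 CPM, and are nearly flat in bulb cells. Id1 stands higher with more immediate early transcripts in bulb cells, and in the highest of these groups in early-anagen cells.

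Immediate early genes, such as Fos and Jun, are switched on within minutes by many stimuli, among them the dissociation of tissue. Cells were ranked in the same way by 18 of these genes. Id1 was higher in the highest than in the lowest group of both libraries. It was at 13.2 and 44.4 CPM in early-anagen cells (log2 ratio 1.75, from 1.41 to 2.10) and at 81.4 and 256 CPM in the bulb (1.65, from 1.49 to 1.82). In early anagen the rise lay in the highest group, with 13.2, 15.5, 16.7 and 44.4 CPM from the lowest group on. Id1 was found in 9.47%, 8.62%, 7.47% and 13.1% of those cells. The ranks were taken within each library, so groups of different libraries are not compared with each other. Id2 and Id3 had no steady order in early anagen. From the lowest group to the highest, Id2 stood at 251, 199, 166 and 220 CPM and Id3 at 390, 255, 248 and 369 CPM. Id2 was found in 70.0% of cells in the lowest and 52.2% in the highest group, and Id3 in 65.9% and 52.2%. Their log2 ratios of the highest to the lowest group were −0.19 and −0.08 in early anagen and 0.30 and 0.48 in the bulb. Bambi went with immediate early genes in early anagen, at 27.3 and 55.6 CPM, but not in the bulb, at 58.9 and 56.4 CPM. Smad6 stood at 30.8 and 47.6 CPM in the lowest and highest bulb groups. The part of dissociation in these levels was not tested.

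The depth of a cell and its keratin UMIs were set beside the levels of the members. With cells ranked by total UMIs, Id2 stood at 138 CPM in the shallowest and 226 CPM in the deepest early-anagen cells and Id3 at 199 and 392 CPM, while in the bulb Id2 stood at 1598 and 1692 CPM and Id3 at 1694 and 1484 CPM. Early-anagen cells with 0, 1 and 2 UMIs of Krt10 and Krt14 had 175, 272 and 267 CPM of Id2 after thinning, and 273, 391 and 410 CPM of Id3. Keratinocyte barcodes had less Id2 and Id3 than any of these classes. At the limit used to choose cells, and at full depth, the 247 early-anagen cells with 2 keratin UMIs had 292 CPM of Id2, and the 96 excluded ones with 3 had 185 CPM. In the bulb the corresponding values were 1559 CPM in 99 cells and 1535 CPM in 17 cells. The part of keratinocyte RNA in the levels of early-anagen cells was not tested.

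Within early-anagen cells the first 3 Id genes were found together. At 10000 UMIs, Id3 was found in 70.4% of cells with Id2 (68.1% to 72.6%) and in 35.5% of cells without it (32.8% to 38.3%). Of the 269 cells with Id1, 91.4% had Id3 and 90.7% had Id2, against 51.5% and 53.3% of cells without Id1. Smad7 was found in 46.5% of cells with Id1 and 23.3% of cells without it. As a description over 2785 cells of 1 library, which share its free RNA and differ in depth before thinning, Pearson's r of log UMIs was 0.59 for Id2 and Id3, 0.43 for Id1 and Id3 and 0.38 for Id1 and Id2. It was 0.21 to 0.23 for Smad7 with each of the 3, and the median over 21 pairs of members was 0.08. Bmpr1a had negative values with Id2 and Id3 (−0.05 and −0.06). Over 3734 bulb cells the highest of 36 pairs was again Id2 and Id3, at 0.24, with a median of 0.03.

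The number of Id genes found in a cell went with its stage of pigmentation. Of the 698 early-anagen cells with 0 Id genes at 10000 UMIs, 3.30% were Oca2+ (2.10% to 4.90%). Of the 379 cells with 3 or 4, 25.1% were Oca2+ (20.8% to 29.7%). Mitf was at 258 CPM in the former and 734 CPM in the latter, Vim at 6360 and 2764 CPM, and Smad7 at 23.4 and 78.9 CPM. The share of cycling cells was 33.4% (29.9% to 37.0%) with 0 Id genes, 32.3% (29.2% to 35.6%) with 1, 39.0% (35.8% to 42.4%) with 2 and 39.6% (34.6% to 44.7%) with 3 or 4. The intervals for 1 and 2 Id genes did not overlap, and those of the first and last classes did.

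The genes most like each member over cells were taken from all genes of at least 0.2 UMIs per thinned cell, which were 5288 genes in early anagen and 3046 in the bulb. In early anagen, Id2 was most like Id3, Trpm1 (r = 0.54) and Slc24a5 (0.42), and Id3 was most like Id2, Trpm1 (0.47) and Id1. Id1 was most like Id3, Id2 and Trpm1 (0.24). Trpm1, a cation channel, and Slc24a5, an ion exchanger of the melanosome, are pigmentation genes, and the most opposed gene was Vim for each of Id1 (−0.25), Id2 (−0.47), Id3 (−0.44) and Smad7 (−0.16). Smad7 was most like Id3, Id2 and Id1. Bambi was most like Cebpd, Jun and Hspa1b, with r from 0.14 to 0.15, and Bmpr1a was most like Arid5b, Nfat5 and Ahnak, with r from 0.11 to 0.12.

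In the bulb, Id1 was most like Fos (0.27), Jun (0.18) and Id3 (0.17), and Id3 was most like Id2, Fos (0.20) and Id1. Id2 was most like Id3, Ftl1 and Trpm1 (both 0.19), and Id4 was most like Sat1 (0.14), Id2 and Fabp7 (both 0.12). Id1 thus had other Id genes among its neighbours in both libraries, beside Trpm1 in early anagen and beside Fos and Jun in the bulb. These lists hold the top genes only, and Id1 was also higher in the early-anagen group with the most immediate early transcripts. Smad6 (Id2, Fos and Gadd45g) and Smad7 (S100a6, Tmod3 and Fabp4) had no gene above 0.09.

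Of 65 other BMP pathway genes, 25 had a mean of at least 10 CPM. 1 of them was at least 2-fold higher in the bulb, 13 were at least 2-fold lower and 11 lay between, with a median log2 ratio of −1.08. As shares these were 4% and 52%, beside 16.4% and 25.8% of all genes over the limit. With TMM scaling, which adds 0.31 to every log2 ratio, 2 were higher and 11 lower, with a median of −0.77. Some genes in these counts, such as Smad4 and Hey1, reached the limit only through the library where they were higher. Their place in the counts carries no weight. Another 22 genes were under the limit with UMIs in both libraries, and of these 8 were at least 2-fold higher and 10 at least 2-fold lower with an interval that did not reach 0. The scarce genes thus went both ways. Of the 15 ligand genes, 0 reached the limit. The highest was Bmp1 (10.6 CPM in early anagen), which encodes a protease that carries the family name. Gdf11, a ligand of the wider family and not of the BMP route described above, had 234 UMIs in early anagen and 141 in the bulb. Of the BMP ligands, Bmp7 had 33 and 147 UMIs and Bmp4 had 24 and 0. All 4 were under the level set for naming genes and were named after their values were seen. Of 13 secreted antagonists, Fst (log2 ratio −1.35) and Twsg1 (−0.84) reached it. Fst was at 31.9 CPM in early-anagen melanocytes but at 250 CPM in the early-anagen keratinocyte barcodes, and the part of keratinocyte RNA was not tested. Nog, which encodes the antagonist noggin and was named after its value was seen, had 6 UMIs in early anagen and 146 in the bulb (log2 ratio 5.04, from 3.89 to 6.51).

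Among receptors, Bmpr2 was at 77.4 CPM in early anagen and 23.6 CPM in the bulb, Acvr1 at 21.6 and 10.2 CPM and Acvr2a at 22.4 and 3.81 CPM. The co-receptors Eng (−2.82) and Rgmb (−1.15) were lower as well. All receptor and co-receptor genes that reached the limit, Bmpr1a among them, were thus at least 2-fold lower in the bulb with scaling by total UMIs, as were 25.8% of all genes. With TMM scaling Acvr1 (−0.77), Rgmb (−0.84) and Bmpr1a (−0.82) were short of 2-fold. Acvr2a and Eng reached the limit only through their early-anagen level. In the early-anagen keratinocyte barcodes Bmpr2 was at 79.5 CPM (68.7 to 91.5), Acvr2a at 22.9 CPM (17.3 to 29.8) and Acvr1 at 17.6 CPM (12.8 to 23.7). Bmpr1a was at 49.2 CPM (40.8 to 58.8) in them. The early-anagen levels of Bmpr2, Acvr2a, Acvr1 and Bmpr1a were thus not distinguishable from those of keratinocyte barcodes, and the part of keratinocyte RNA was not tested. Of the Smads that carry the signal, Smad1 was at 16 and 23.5 CPM and Smad5 at 66.2 and 62.9 CPM, but Smad4, their common partner, was at 72.8 and 8.09 CPM, a log2 ratio of −3.17 (−3.31 to −3.03). Smad4 too reached the limit only through its early-anagen level. Intracellular repressors included Ski (−2.38), Smurf2 (−2.14) and Pmepa1 (−1.44), which were over 2-fold lower. Another 6 lay between, namely Ppm1a (−0.92), Tob2 (−0.86), Nedd4l (−0.77), Tob1 (−0.23), Skil (−0.14) and Fkbp1a (0.81). Usp9x (−1.88), a deubiquitinase listed with these genes but not called a repressor here, was also over 2-fold lower. With TMM scaling Smad5, Tob1 and Skil had ratios above 0, so no direction is given for them. Of the other targets over the limit, Hey1, named after its value was seen, was the 1 gene over 2-fold higher, at 7.14 and 15.8 CPM. It reached the limit only through its bulb level. Hes1 (−0.35) and Runx3 (−0.98) lay between, and Zeb1 (−2.39) and Zeb2 (−1.51) were lower. Under the limit, and named after their values were seen, the homeobox gene Msx2 had 12 and 224 UMIs (log2 ratio 4.66, from 3.83 to 5.63), Gata2 had 9 and 114 (4.10, from 3.13 to 5.27), Dlx5 had 2 and 69 (5.55, from 3.64 to 8.62), Msx1 had 14 and 41 (1.99) and Dlx3 had 6 and 19 (2.10). These were higher in the bulb, as the Id genes were, but 10 genes under the limit were at least 2-fold lower there. Among the lower ones, also named after their values were seen, Acvrl1 had 400 and 2 UMIs (log2 ratio −7.21). Fstl1 had 559 and 6 (−6.10) and Acvr2b had 520 and 66 (−2.54). The named higher genes therefore do not stand for the scarce genes as a whole. In the 7 bulb keratinocyte barcodes Msx2 had 48 UMIs, Msx1 34 and Dlx3 9, while Gata2, Dlx5 and Nog had 0, and the part of keratinocyte RNA was not tested.

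The E proteins, with which Id proteins pair, were lower in the bulb, where the Id genes were higher. Tcf3 was at 33.9 CPM in early anagen and 13.4 CPM in the bulb, Tcf4 at 178 and 87.1 CPM and Tcf12 at 122 and 39.0 CPM. With scaling by total UMIs all 3 were at least 2-fold lower, as were 25.8% of all genes over the limit, while with TMM scaling Tcf4 (−0.72) was short of 2-fold.

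**Figure D5:**
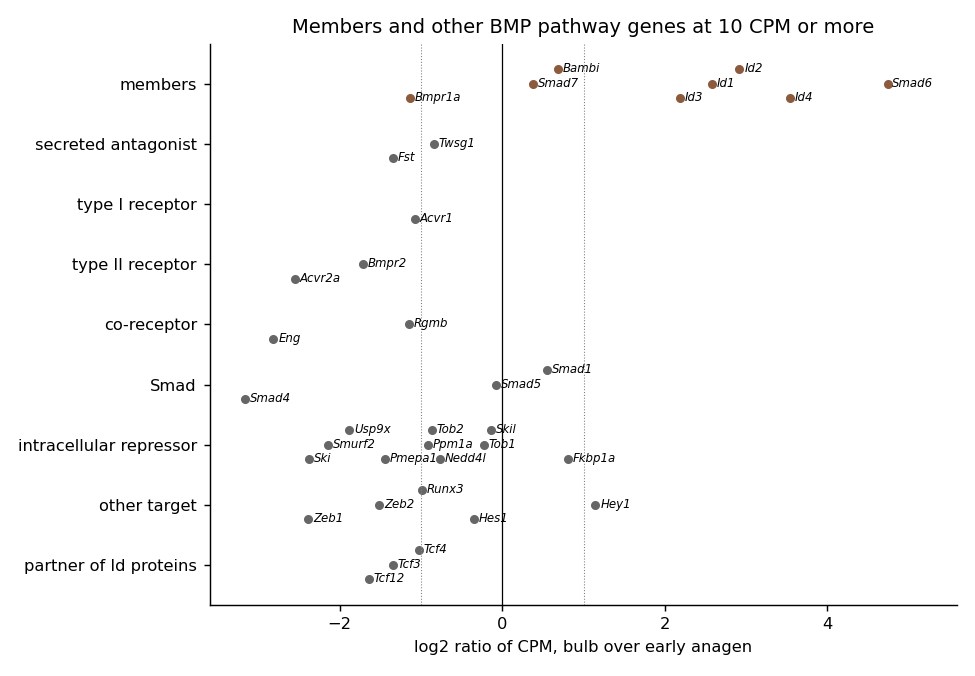
Log2 ratio of CPM, bulb over early anagen, for the 8 members (brown) and the other BMP pathway genes and E proteins (grey) with a mean of at least 10 CPM, arranged by role. Dotted lines mark 2-fold. Usp9x, a deubiquitinase, is drawn with the intracellular repressors although it is not called one here. The 4 Id genes and Smad6 lie to the right of all other genes, and Smad4 lies farthest to the left, at −3.17. Smad6 reached the limit of 10 CPM only through its bulb level, and Smad4 only through its early-anagen level.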

How the data were processed

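Single-cell transcriptomes of sorted GFP+ melanocytes were measured in 1 10x library per condition, each from 4 pooled mice, so groups were compared without a test. A telogen library was not analysed here. Per the submitters' processing notes, Cell Ranger 6.0.1 was used with the mm10 genome build. The matrices hold unnormalised UMI counts for each gene in each barcode, and they were used as the authors deposited them. The paper names the Cell Ranger reference release it used but does not spell out its gene annotation version. The coordinates printed are those of GENCODE M21, which was not compared with that release.

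Cells were chosen with the limits given above, without clustering. Doublets were not called, and leaving out the 5% of cells with most UMIs was tried instead. Counts were summed over cells to CPM, with exact Poisson intervals for levels, exact intervals for the ratio of 2 Poisson sums and Clopper-Pearson intervals for shares, all at 95% and for counting error only. Intervals for cells of 1 library say nothing of the spread between mice. Comparisons within early anagen used cells thinned at random to 10000 UMIs, and comparisons of shares between libraries and the spread used 5000. Genes entered a comparison with a mean of at least 10 CPM over its groups.

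The genes named were the 10 members, pathway genes of at least 20 CPM in either library, and, for members of at least 0.2 UMIs per thinned cell, the 3 genes with the highest Pearson's r of log UMIs, without mitochondrial, ribosomal protein and clone-named genes. The members and gene lists were chosen with earlier results of these data known. The ratios and intervals were tested on simulated data. The alternatives tried were other scalings, thinning, cell limits, random seeds and class limits. Python 3.11.15, numpy 2.4.6, scipy 1.17.1, pandas 2.3.3, matplotlib 3.10.9 and, for TMM factors, edgeR 4.0.16 in R 4.3.3 were used.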

Additional observations from a re-analysis of the deposited data

How the results depend on the processing

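The median log2 ratio over all 10 members of bulb to early anagen, 2.38, was 2.70 with TMM factors, 2.23 with totals free of mitochondrial, ribosomal protein and pigmentation genes, 2.54 as a mean of cell CPM, 2.53 with cells thinned to 5000 UMIs and 2.61 without cells that had a Krt10 or Krt14 UMI. With TMM factors 0 members were at least 2-fold lower. No member's ratio between libraries changed sign in 9 alternatives. The second scaling left 13.1% of genes at least 2-fold higher and 29.6% lower, with a median of −0.27. Over all 15502 genes with a UMI in both libraries, 15.6% were higher and 35.6% lower.

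Within early anagen, medians are over the 7 members of at least 10 CPM. That of 0.99 between Oca2+ and Oca2- cells was 1.36 with Oca2+ from 2 UMIs, where 2 members were at least 1.5-fold lower, and 0.62 in the highest pigmentation group, added after the data were seen, where 1 was lower. Without cycling cells, 2 members were lower. Bambi's ratio was 0.09 without keratin UMIs. The median of −0.07 between cycling and other cells was −0.22 with all UMIs. Smad9 there went from −1.41 to 0.013 with another random seed and 0.30 without the deepest 5% of cells, and Smad6 from −0.73 to 0.017 in cells without Oca2 and 0.31 without the deepest 5%. The cause was not tested. The median spread among bulb cells, 1.44, was 1.91 at 10000 UMIs. Of 69 values of medians and counts under alternatives, 56 stayed within their limits and 13 did not. Of the other values, mostly those of single members, 167 stayed within their limits and 84 did not. A further 4 turned the sign of a ratio of at least 1.5-fold.

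No paired analysis was possible because each condition was 1 library. Counting error limits Smad6, Smad9 and Atoh8 in early anagen, and no error between mice can be given.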
